A study of Mus musculus with 3 samples.

Results

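The core autophagy machinery is described here as 36 genes, chosen by name as the components that build and close an autophagosome: 5 of initiation, 12 of nucleation and membrane supply, 16 of conjugation and 3 of closure and fusion. All 36 were found among the 32285 genes of the count tables, and none of their symbols was used for more than 1 gene. The study sequenced single cells of mouse non-small cell lung cancer as 10x Chromium 3′ libraries, with 1 library for each of 3 groups, and its stated subject is the immune cells of the tumour after drug treatment. The groups are labelled PBS, PD-L1 and AI-Exo, and the series title names multifunctional exosomes that inhibit autophagy. The labels do not spell out PD-L1 or AI-Exo, and they give no strain, number of mice, age, dose, time or cell sort. With 1 library per group a difference between libraries has no replicate check, and the treatment cannot be told apart from the mouse, the dissociation or the library.

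Autophagy begins when the ULK1 kinase complex is switched on and recruits a class III PI3-kinase complex, which marks a membrane with phosphatidylinositol 3-phosphate. WIPI proteins bind that lipid, ATG2 proteins carry lipids into the growing membrane and ATG9 vesicles seed it, while ubiquitin-like conjugation reactions attach LC3 and GABARAP proteins to phosphatidylethanolamine. The closed autophagosome then fuses with a lysosome, and the process is known in tumours both for feeding cancer cells and for shaping the survival and activation of immune cells. Messenger RNA levels of these genes do not measure autophagic flux, which was not measured in these libraries.

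Many autophagy and lysosome genes carry the E-box CACGTG, the core of the element bound by the transcription factor TFEB, in their promoters. The 250 bases before the start of each gene were searched on both strands for CACGTG, which is its own reverse complement, and for the forkhead motif GTAAACA with its reverse complement TGTTTAC. RefSeq promoters of GRCm38.p6 matched 29 of the 36 genes. CACGTG was present in 4 of these 29 (13.8%), namely Atg3, Atg5, Atg7 and Nrbf2, against 1854 of all 27025 promoters (6.86%). The forkhead motif was present in 0 of the 29 and in 956 of all promoters (3.54%). Of the 4 carriers, Atg3 and Atg7 were higher in neutrophils under both scalings used for the cell types. In the same contrast Atg5 was lower or not called and Nrbf2 changed its call with the scaling. Whether the motif goes with the level of a gene was not tested. The promoters of Atg3, which holds the motif at 2 places, and Atg7, both enzymes of LC3 conjugation, are shown as examples with that of Ulk1, the member with the largest difference in neutrophils and without the motif. Each is written 5′ to 3′ on the gene's own strand, with CACGTG in capitals. Atg3 lies on the plus strand at chr16:45158579-45158828, Atg7 on the plus strand at chr6:114670846-114671095 and Ulk1 on the minus strand at chr5:110810082-110810331.
Atg3: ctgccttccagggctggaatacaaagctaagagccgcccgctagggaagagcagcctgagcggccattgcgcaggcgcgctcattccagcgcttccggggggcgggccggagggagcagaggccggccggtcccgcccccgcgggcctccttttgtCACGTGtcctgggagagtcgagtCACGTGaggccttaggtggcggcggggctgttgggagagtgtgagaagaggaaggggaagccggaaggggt
Atg7: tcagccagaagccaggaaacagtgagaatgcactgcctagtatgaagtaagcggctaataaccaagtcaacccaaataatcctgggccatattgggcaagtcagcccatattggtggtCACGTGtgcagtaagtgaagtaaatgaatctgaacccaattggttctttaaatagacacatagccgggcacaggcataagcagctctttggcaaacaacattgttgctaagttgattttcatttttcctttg
Ulk1: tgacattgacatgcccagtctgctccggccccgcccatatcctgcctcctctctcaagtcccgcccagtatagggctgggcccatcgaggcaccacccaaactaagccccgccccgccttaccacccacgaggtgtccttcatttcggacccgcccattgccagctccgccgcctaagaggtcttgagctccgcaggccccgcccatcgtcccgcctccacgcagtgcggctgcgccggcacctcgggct
The Atg3 promoter held CACGTG at 2 places, starting 94 and 71 bases before the gene start, and the Atg7 promoter held it at 1 place, 132 bases before the start. A match is a string of letters and not a measured binding site.

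The libraries held 68386729 (PBS), 65997942 (PD-L1) and 76512500 (AI-Exo) unique molecular identifiers (UMIs, each counting 1 captured RNA molecule). After barcodes with at least 500 UMIs, at least 200 genes and at most 20% mitochondrial UMIs were kept, 9359, 9697 and 10457 barcodes remained, with 23 to 33 barcodes shared by a pair of libraries. The 36 genes made up 0.246%, 0.246% and 0.243% of the kept UMIs, and single members ranged from 209 to 29039 UMIs in a library. Barcodes were assigned to cell types by marker genes, and no doublet caller was run. Barcodes that met the markers of more than 1 lineage (10.5% to 12.3% of those kept in a library) were left out. A further 18.5% to 20.7% met no gate and stayed unassigned. The 13 types used in the fits, 12 of them immune, had at least 20 barcodes in every library. Independent check markers were present in 5 of 5 cases for most immune types, in 4 of 5 for monocytes and in 1 to 3 of 5 for type 2 conventional dendritic cells (cDC2).

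The cells gated as tumour-like did not bear out that name. They expressed Hmga2 at 657, 431 and 628 counts per 1000000 UMIs (CPM) in PBS, PD-L1 and AI-Exo, Rhox5 at 1515, 1472 and 1488 CPM and Krt8 at 499, 467 and 641 CPM. The gate list also held Krt18 and Krt7, and of its 5 genes 3 or 4 reached 20 CPM in a library. All 5 together summed to 2388 to 2817 CPM. The check markers Epcam, Krt19, Cldn4, Cdkn2a and Ly6k stood at 0 to 8.66 CPM, and 0 of 5 passed in every library. The cells are therefore called Hmga2/Rhox5/Krt8 cells after their leading genes. They were 47, 23 and 44 barcodes with a median of 51027, 55249 and 50364 UMIs, against 2510, 2768 and 2952 UMIs in 1255, 1792 and 1306 neutrophils. Of the marker lists of immune types, those of B cells, CD4 T cells, CD8 T cells, neutrophils, macrophages and cDC2 had 0 markers at 20 CPM in the Hmga2/Rhox5/Krt8 cells. Those of plasma cells (198 to 266 CPM summed), mature dendritic cells (129 to 142 CPM), NK cells, monocytes, nonclassical monocytes, alveolar macrophages and cDC1 (34.2 to 85.3 CPM) had 1 each in every library. Of 6 fibroblast markers 1 or 2 reached 20 CPM (91.6 to 203 CPM summed), and of 7 alveolar and airway epithelial markers 0 or 1 did (17.5 to 117 CPM). Mitochondrial UMIs were a median of 3.03% to 3.67% in these cells and 0.184% to 0.253% in neutrophils. RNA from outside a cell could make up at most 0.764% to 1.06% of their UMIs and 1.44% to 1.82% of the neutrophils' UMIs, by genes that each type should lack.

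Of the 13 types, neutrophils carried the most core autophagy RNA relative to their UMIs, and the Hmga2/Rhox5/Krt8 cells the least, in all 3 libraries. The 36 genes summed to 4487, 4229 and 4073 CPM in neutrophils of PBS, PD-L1 and AI-Exo. In the Hmga2/Rhox5/Krt8 cells they summed to 1741, 1654 and 1648 CPM. B cells stood at 2236, 2174 and 2222 CPM, alveolar macrophages at 2573, 2398 and 2371 CPM, and CD8 T cells at 2065, 2151 and 2143 CPM. Conjugation genes made up most of the difference between neutrophils and B cells, with a lowest, median and highest value over libraries of 2516, 2644 and 2716 CPM against 1007, 1026 and 1072 CPM in B cells. Initiation genes summed to 363, 377 and 436 CPM in neutrophils and to 238, 246 and 251 CPM in B cells. Nucleation genes summed to 745, 803 and 899 CPM in neutrophils, which overlapped the 761, 844 and 1055 CPM of nonclassical monocytes. The lowest initiation sums were those of dendritic cells, with 78.5 to 109 CPM in mature dendritic cells and 93.5 to 96.8 CPM in type 1 conventional dendritic cells (cDC1). A CPM gives a gene's share of the RNA of its type, so it does not tell more molecules of a gene from less of the other RNA in a cell.

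**Figure D1:**
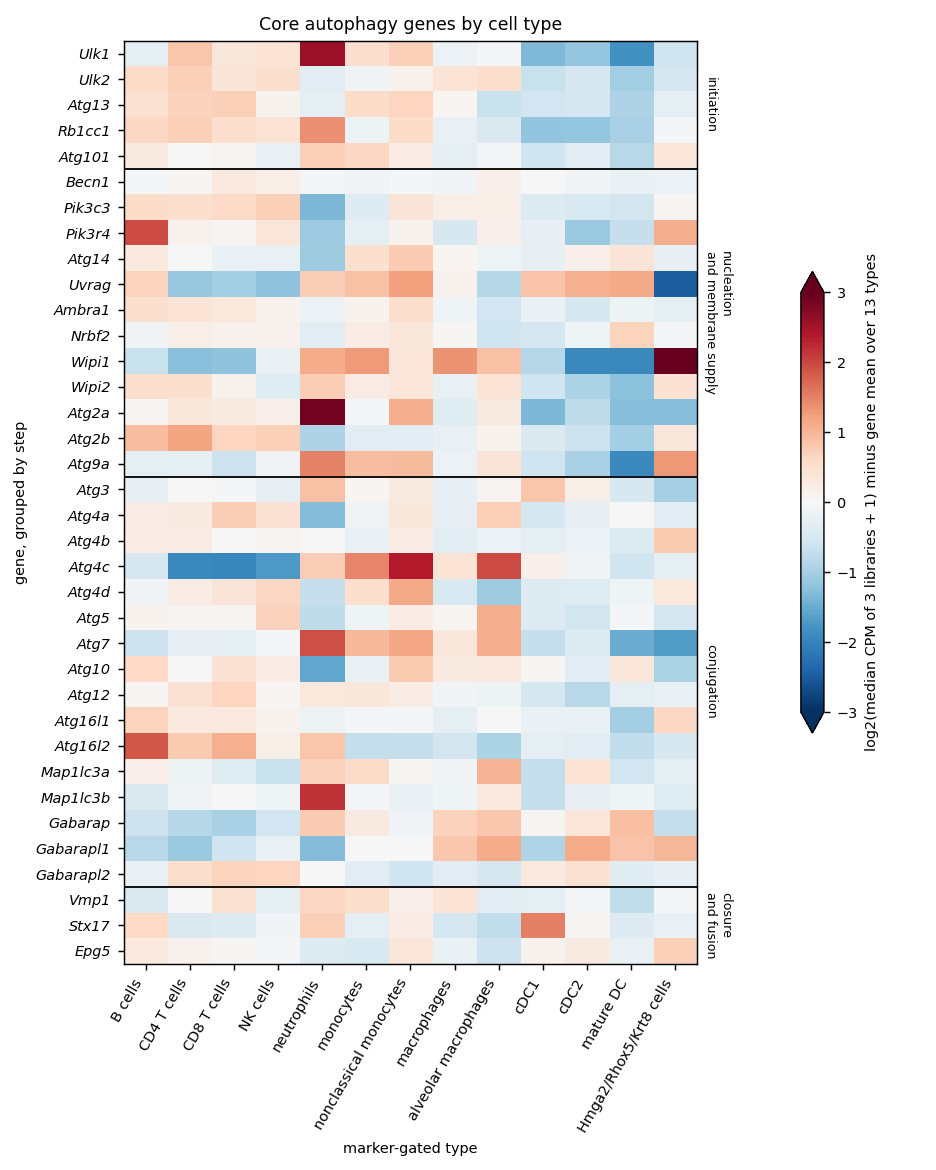
Heat map of the 36 genes (rows, grouped by step) in 13 marker-gated types (columns), coloured by log2 of the median CPM of the 3 libraries plus 1, minus the gene's mean over the types. The neutrophil column is high for Ulk1, Atg2a, Atg7 and Map1lc3b and low for Atg10, and the Hmga2/Rhox5/Krt8 column is high for Wipi1 and low for Uvrag.

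Types were compared with edgeR's quasi-likelihood test on UMIs summed per type and library, with the library as a block and Benjamini-Hochberg adjustment over 13124 genes. The p-values measure how a difference between types varied over 3 libraries of different treatment, not over replicate mice. Neutrophils devote 21.1% to 24.1% of their UMIs to 10 genes, and the scaling for such composition (trimmed mean of M-values, TMM) gave them factors of 0.463 to 0.552, so each contrast was also fitted with scaling to all UMIs. That change moved the median gene of the neutrophil contrast by -0.97 on the log2 scale, from 0.10 to -0.87.

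Against the mean of the other 11 immune types, 27 of the 36 members (75.0%) were higher in neutrophils and 4 (11.1%) were lower with TMM scaling, where 37.5% of all genes tested were higher and 28.6% lower. With scaling to all UMIs, 18 members (50%) were higher and 11 (30.6%) lower, against 19.8% and 52.1% of all genes. The 18 that were higher and the 4 that were lower held under both scalings, while Epg5 and Nrbf2 had opposite calls. The median member stood at 1.23 (log2) with TMM scaling and at 0.22 with scaling to all UMIs, above the median gene in both. Erythroid markers summed to 1562, 748 and 5550 CPM in the neutrophils of PBS, PD-L1 and AI-Exo and to under 10 CPM in monocytes and B cells. Without the 21, 55 and 31 neutrophil barcodes that held 0.1% or more erythroid UMIs, the count stayed at 27 higher and 4 lower.

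Initiation genes were higher in neutrophils in 5 of 5 cases with TMM scaling and in 3 of 5 with scaling to all UMIs. Ulk1, the kinase that starts the process, had 103, 71.4 and 72.0 CPM in neutrophils of PBS, PD-L1 and AI-Exo, while its 33 values in the other immune types ran from 2.27 to 31.3 CPM with a median of 11. The groups did not overlap, and the difference was 4.08 ± 0.13 (log2, SE; edgeR, Benjamini-Hochberg adjusted p = 1.2e-26), or 3.08 when scaled to all UMIs. Rb1cc1, the FIP200 scaffold of the same complex, had 197, 185 and 185 CPM against 26.6 to 119 CPM elsewhere, without overlap (log2 difference 2.54, and 1.53 scaled to all UMIs). Atg101, which stabilises Atg13, had 68.1, 69.3 and 78.7 CPM and touched the highest value of monocytes, 69.2 CPM, with a log2 difference of 1.90 and 0.89 under the respective scalings. Ulk2 and Atg13 were called higher with TMM scaling only (log2 0.76 and 0.78), and their all-UMI values were -0.23 and -0.22, not called.

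Among nucleation and membrane supply genes, 8 of 12 were higher and 1 was lower with TMM scaling, and 5 were higher and 5 lower with scaling to all UMIs. Atg2a, a lipid transfer protein, had 249, 240 and 216 CPM in neutrophils, above the 9.53 to 102 CPM of the other immune types (log2 difference 4.07 ± 0.10; edgeR, Benjamini-Hochberg adjusted p = 1.1e-29; 3.07 scaled to all UMIs). Its paralog Atg2b had 7.36, 6.44 and 8.89 CPM, within the 1.23 to 36.2 CPM elsewhere. Atg2b did not pass with TMM scaling (log2 -0.01) and was lower with scaling to all UMIs (-1.02). Wipi1, a phosphoinositide reader, had 7.62, 3.73 and 7.22 CPM in neutrophils against a median of 2.25 CPM elsewhere, and overlapped macrophages at up to 14.4 CPM (log2 difference 2.66, and 1.67 scaled to all UMIs). Wipi2, Atg9a and Uvrag were higher under both scalings, with log2 differences of 2.12, 2.62 and 1.55 by TMM and 1.12, 1.63 and 0.55 by all UMIs. The lipid kinase Pik3c3 was lower under both, with 7.1, 5.09 and 4.26 CPM in neutrophils and a median of 17.2 CPM elsewhere (log2 -0.53; edgeR, Benjamini-Hochberg adjusted p = 0.0094; -1.54 scaled to all UMIs). Becn1, the scaffold of the kinase complex, did not stand apart, with 48.9, 45.1 and 48.9 CPM in neutrophils inside the 40.2 to 66.3 CPM elsewhere, and was called higher with TMM scaling (log2 0.88) and not called with all UMIs (-0.13). Ambra1, a Beclin 1 regulator, behaved like Becn1 (log2 0.80, and -0.21 not called), and Nrbf2 changed its call with the scaling (0.65 higher, and -0.36 lower). Pik3r4 and Atg14, the subunit that directs the kinase to autophagosomes, did not pass by TMM (log2 -0.35 and -0.21) and were lower by all UMIs (-1.37 and -1.21).

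Conjugation genes were higher in 11 of 16 cases and lower in 3 with TMM scaling, and higher in 8 and lower in 5 with scaling to all UMIs. Map1lc3b, which encodes the LC3B protein that coats autophagosomes, reached 1193, 1359 and 1135 CPM in neutrophils, where the other immune types ran from 137 to 356 CPM. The values did not overlap (log2 difference 3.38 ± 0.08; edgeR, Benjamini-Hochberg adjusted p = 2.3e-30; 2.36 scaled to all UMIs). Atg7, the E1-like enzyme that activates LC3 and ATG12, had 142, 142 and 150 CPM against 10.9 to 105 CPM, again without overlap (log2 3.04, and 2.03 scaled to all UMIs). Atg3, the E2-like enzyme for LC3, had 232, 207 and 191 CPM and overlapped cDC1 at 207 CPM (log2 1.90, and 0.89). Gabarap had 702, 659 and 655 CPM, within the range of mature dendritic cells at up to 759 CPM (log2 1.82, and 0.80). The other E2-like enzyme, Atg10, which serves ATG12, went the opposite way: 10.5, 8.31 and 10.9 CPM in neutrophils lay below every other value (18.0 to 68.4 CPM), with log2 -0.97 (edgeR, Benjamini-Hochberg adjusted p = 3.9e-06) and -1.97 scaled to all UMIs. The protease Atg4a and the LC3 relative Gabarapl1 were also lower under both scalings (log2 -0.51 and -0.50 by TMM, -1.51 for each by all UMIs). Without the AI-Exo library, 1 of the 4 lower calls passed, that of Atg10, while Pik3c3, Atg4a and Gabarapl1 did not. Atg5, the partner of ATG12, had 26.3, 17.1 and 27.2 CPM, touched the lowest value elsewhere (27.0 CPM) and passed with scaling to all UMIs only (log2 -1.09, and -0.09 by TMM). Atg4c, Atg12, Atg16l2 and Map1lc3a were higher under both scalings (log2 1.96, 1.37, 1.85 and 1.74 by TMM, 0.96, 0.36, 0.84 and 0.74 by all UMIs), each within the range of the other types. Atg4b, Atg16l1 and Gabarapl2 were higher by TMM only (log2 1.08, 0.87 and 1.0), and Atg4d passed by all UMIs only (-0.74, and 0.27 by TMM).

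Closure and fusion genes were higher in 3 of 3 cases with TMM scaling, and 2 were higher and 1 lower with scaling to all UMIs. Vmp1, an endoplasmic reticulum scramblase needed for autophagosome formation, had 461, 364 and 333 CPM in neutrophils and overlapped monocytes at up to 352 CPM (log2 1.81, and 0.80 scaled to all UMIs). Stx17, the autophagosomal SNARE, had 37.9, 31.2 and 33.0 CPM and was exceeded by cDC1 at 58.5, 48.7 and 59.9 CPM (log2 1.81, and 0.81). Epg5, a tether for fusion with lysosomes, had 9.73, 8.64 and 10.4 CPM and changed its call with the scaling (log2 0.58 higher, and -0.42 lower).

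**Figure D2:**
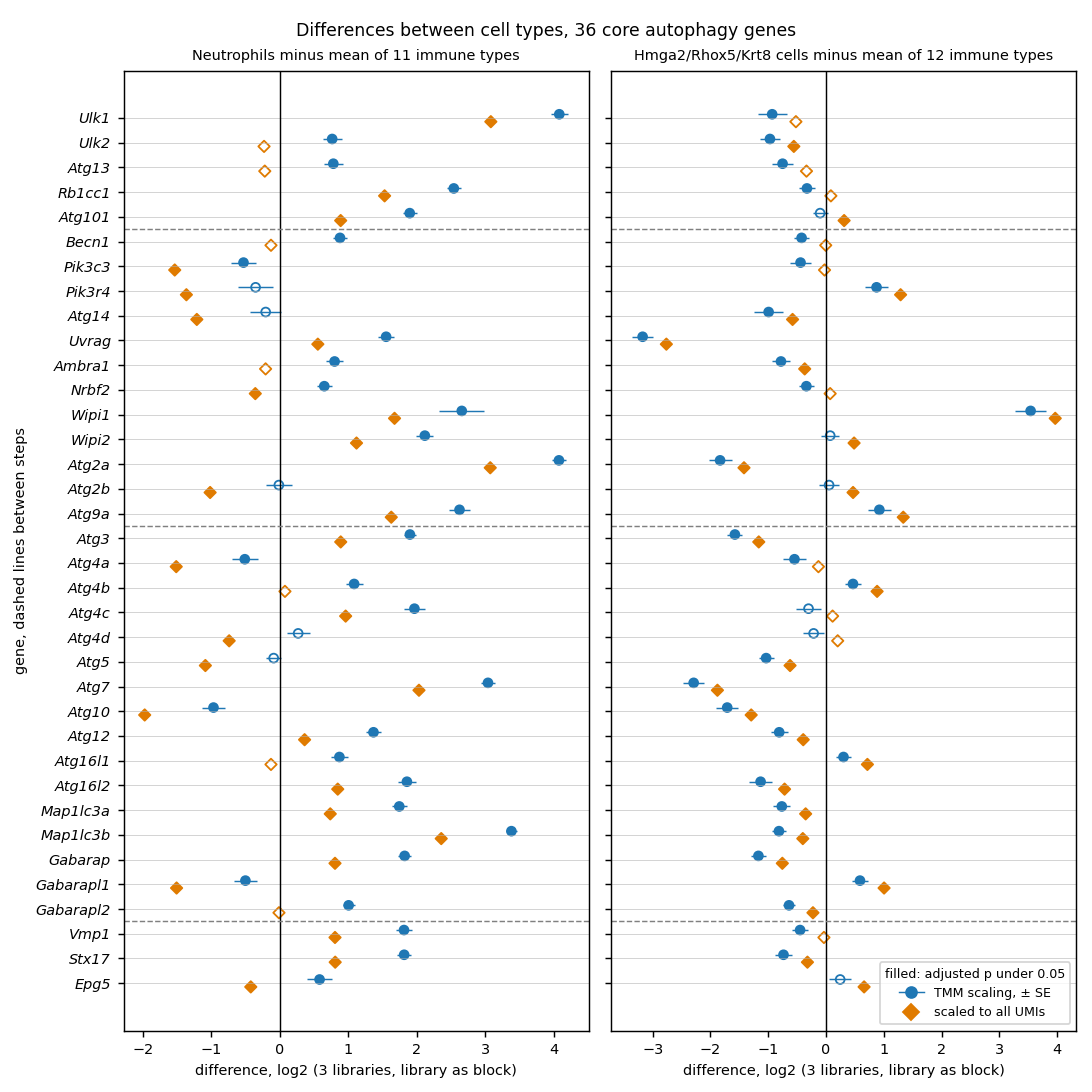
Differences in log2 for the 36 genes, with neutrophils against the other immune types and Hmga2/Rhox5/Krt8 cells against the immune types in separate panels; circles are TMM scaling with standard errors, diamonds are scaling to all UMIs, and filled symbols passed the adjusted p of 0.05. In the neutrophil panel the diamonds lie about 1 unit to the left of the circles (median gene -0.97), and Ulk1, Atg2a, Map1lc3b and Atg7 stay above 2 under both.

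In the Hmga2/Rhox5/Krt8 cells more members were lower than higher against the mean of the 12 immune types, under both scalings. By TMM 1 member, Wipi1, was called higher by at least 2-fold. With TMM scaling 6 of the 36 members (16.7%) were higher and 24 (66.7%) lower, against 37.9% and 32.9% of all genes tested. With scaling to all UMIs 10 were higher and 16 lower, against 47.8% and 23.9% of all genes, and 6 and 16 members were called alike under both. The median member was at -0.59 (log2) by TMM, where the median gene was at -0.03, and at -0.18 by all UMIs, where the median gene was at 0.38. By step, 0 initiation genes were higher and 4 of 5 lower, 3 and 7 of 12 for nucleation, 3 and 11 of 16 for conjugation, and 0 and 2 of 3 for closure. Scaled to all UMIs, these became 1 and 1, 5 and 4, 3 and 10, and 1 and 1. The cells' TMM factors were 1.28 to 1.32, the opposite side of the neutrophils'.

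Wipi1 and Uvrag stood farthest from the immune types. Wipi1 had 32.2, 36.2 and 29.8 CPM in Hmga2/Rhox5/Krt8 cells of PBS, PD-L1 and AI-Exo (81, 46 and 67 UMIs), and the 36 immune values ran from 0 to 14.4 CPM with a median of 2.32. No values overlapped, and the difference was 3.54 ± 0.27 (log2, SE; edgeR, Benjamini-Hochberg adjusted p = 3.7e-14), or 3.97 scaled to all UMIs. Uvrag, a Beclin 1 partner that acts in endosome and autophagosome maturation, had 32.6, 34.6 and 28.0 CPM against 66.0 to 533 CPM in the immune types, also without overlap (log2 -3.17 ± 0.18; edgeR, Benjamini-Hochberg adjusted p = 8.9e-18; -2.76 scaled to all UMIs). Atg9a, the scramblase of the seed vesicles, had 14.2 to 20.3 CPM over the 3 libraries, and Pik3r4, the VPS15 subunit of the lipid kinase, had 17.5, 24.4 and 19.1 CPM. Both were higher under both scalings (log2 0.92 and 0.88 by TMM, 1.34 and 1.29 by all UMIs), but Atg9a overlapped neutrophils at up to 23.4 CPM and Pik3r4 overlapped B cells at up to 40.1 CPM. Atg2a was lower, with 12.3, 18.1 and 8.44 CPM (log2 -1.83, and -1.42 scaled to all UMIs). Ulk1, at 10.3, 5.51 and 7.11 CPM, and Rb1cc1, at 93.5, 68.5 and 64.9 CPM, were lower by TMM (log2 -0.93 and -0.33) and not called by all UMIs (-0.52 and 0.08). Ulk2, Atg14 and Ambra1 were lower under both scalings (log2 -0.97, -0.99 and -0.78 by TMM).

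In the conjugation step the E1-like Atg7 had 10.7, 5.51 and 14.2 CPM in Hmga2/Rhox5/Krt8 cells, where the lowest immune value was 10.9 CPM in mature dendritic cells (log2 -2.29; edgeR, Benjamini-Hochberg adjusted p = 1.1e-13; -1.88 scaled to all UMIs). Atg3 had 47.7, 55.1 and 56.9 CPM, below all 36 immune values (71.7 to 232 CPM; log2 -1.58, and -1.16), and Atg10 had 16.3, 18.9 and 8.89 CPM (log2 -1.71, and -1.30). Gabarap, at 236, 252 and 226 CPM, and Map1lc3b, at 232, 187 and 206 CPM, were lower under both scalings (log2 -1.17 and -0.81 by TMM, -0.76 and -0.40 by all UMIs) but lay within the immune range. Gabarapl1 was the LC3 relative that was higher, with 27.4, 47.2 and 38.2 CPM against a median of 16.8 CPM (log2 0.59, and 1.01), and it did not pass without the PD-L1 library. Atg4b, the protease that primes LC3, had 41.0, 42.5 and 39.6 CPM, just above the highest immune value of 38.7 CPM (log2 0.47, and 0.88). Atg16l1, which places the conjugation machinery on membranes, passed narrowly (log2 0.30, adjusted p = 0.048 by edgeR with Benjamini-Hochberg adjustment) and did not pass when any 1 library was left out. Becn1, at 44.1, 69.3 and 44.4 CPM, was lower by TMM (log2 -0.42) and level by all UMIs (0.00). Of the closure genes Stx17 was lower under both scalings (log2 -0.74, and -0.32), Vmp1 by TMM only (-0.45, and -0.04), and Epg5 was higher by all UMIs only (0.66, and 0.25 by TMM). Leaving out 1 library at a time left 4 or 5 members higher and 19 to 21 lower.

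**Figure D3:**
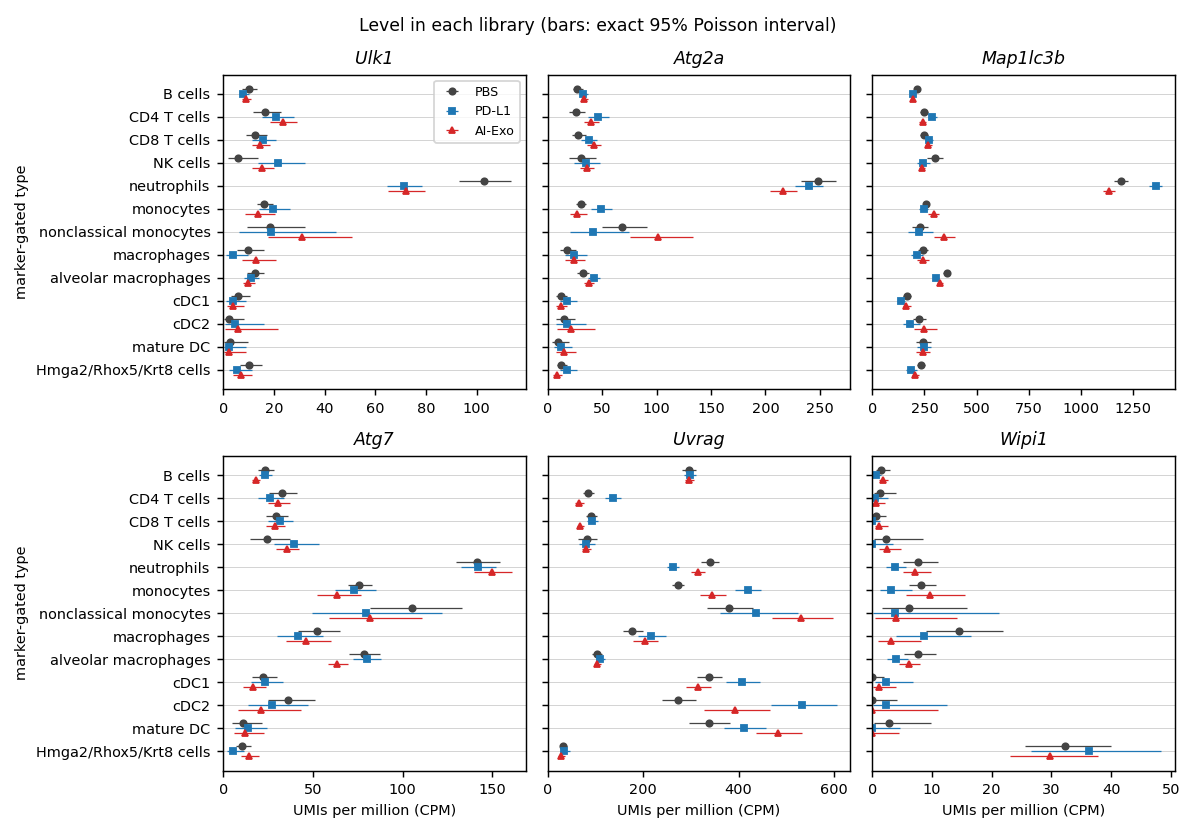
CPM of Ulk1, Atg2a, Map1lc3b, Atg7, Uvrag and Wipi1 (horizontal axes, each from 0) in 13 types, with 1 symbol per library and exact 95% Poisson intervals that cover counting error only. Neutrophils are apart for the first 4 genes, such as Map1lc3b at 1135 to 1359 CPM, and the Hmga2/Rhox5/Krt8 cells are lowest for Uvrag and highest for Wipi1.

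Mononuclear phagocytes (monocytes, macrophages and alveolar macrophages) and lymphocytes (B, CD4 T, CD8 T and NK cells) shared similar counts of higher and lower members, and particular genes separated them. With TMM scaling 11 of 36 members (30.6%) were higher in phagocytes and 14 (38.9%) lower, close to the 33.7% and 36.3% of all genes tested. With scaling to all UMIs 8 were higher and 16 lower, against 30.7% and 40.7% of all genes. Atg4c, an LC3 protease, had a lowest, median and highest value of 12.8, 29.2 and 48.7 CPM over the 9 phagocyte values and of 0.894, 2.14 and 6.76 CPM over the 12 lymphocyte values, without overlap. The difference of Atg4c was 3.44 ± 0.17 (log2, SE; edgeR, Benjamini-Hochberg adjusted p = 9.9e-20). Wipi1 ran from 3.20 to 14.4 CPM in phagocytes and from 0 to 2.39 CPM in lymphocytes (log2 2.80). Gabarap ran from 351 to 701 CPM against 195 to 308 CPM (log2 1.39), Gabarapl1 from 18.7 to 43.0 CPM against 7.43 to 16.8 CPM (log2 1.57), and Atg7 from 41.5 to 80.0 CPM against 18.2 to 39.4 CPM (log2 1.25). Each of these 5 genes was higher in phagocytes under both scalings, with no overlap. The 5 were named for the size of their differences. The share of all genes without overlap was not counted, in this contrast or the others.

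Lymphocytes were higher for Atg16l2, the paralog of Atg16l1, which ran from 19.8 to 71.8 CPM in them and from 9.16 to 18.7 CPM in phagocytes (log2 -1.68; edgeR, Benjamini-Hochberg adjusted p = 6.1e-15). B cells led with 71.7, 70.4 and 71.8 CPM of Atg16l2. Rb1cc1 also separated the classes, at 93.1 to 119 CPM in lymphocytes and 35.7 to 81.7 CPM in phagocytes (log2 -0.76). Atg2b, Gabarapl2 and Pik3r4 were lower in phagocytes (log2 -0.83, -0.68 and -0.58) with overlapping values. For Pik3r4 the B cells stood apart, with 27.8, 40.1 and 35.9 CPM against a lymphocyte median of 10.6 CPM. Map1lc3b differed little, at 214 to 356 CPM in phagocytes and 194 to 299 CPM in lymphocytes, and was called higher by TMM only (log2 0.28; edgeR, Benjamini-Hochberg adjusted p = 0.0020; 0.16 scaled to all UMIs). By step, initiation genes were higher in 0 and lower in 3 of 5 cases, nucleation genes in 3 and 4 of 12, conjugation genes in 7 and 5 of 16, and closure genes in 1 and 2 of 3. Scaled to all UMIs, these became 0 and 3, 3 and 4, 5 and 7, and 0 and 2.

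Several members are paralogs, and the share of each in its family's UMIs was compared across types and libraries. Shares are set side by side only between types, since 3′ tags capture different genes unequally. Ulk1 made up 70.5% to 77.5% of Ulk1 and Ulk2 UMIs in neutrophils of the 3 libraries, 14.6% to 17.8% in B cells and 32.0% to 43.6% in monocytes. Atg2a made up 96.1% to 97.4% of the ATG2 pair in neutrophils, 48.4% to 55.1% in B cells and 30.6% to 48.9% in Hmga2/Rhox5/Krt8 cells. It was also the larger part in nonclassical monocytes (78.6% to 91.2%), monocytes (72.5% to 75%) and mature dendritic cells (58.3% to 92.3%). Wipi1 made up 42.9% to 49.5% of the WIPI pair in Hmga2/Rhox5/Krt8 cells, 7.6% to 13.8% in neutrophils and 1.4% to 4.2% in B cells. Neutrophils, Hmga2/Rhox5/Krt8 cells and B cells thus did not overlap for the WIPI pair.

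In the LC3 and GABARAP family of 5 genes, Map1lc3b was 57.5% to 62.3% of UMIs in neutrophils, 33.3% to 34.2% in B cells and 27.1% to 28.6% in alveolar macrophages, where Gabarap made up 56.2% to 57.7%. Gabarapl1 was 4.4% to 8.0% of the family in Hmga2/Rhox5/Krt8 cells and 0.3% to 0.4% in neutrophils. Atg4c was 39.2% to 48.7% of the 4 ATG4 proteases in alveolar macrophages, 24.2% to 37.2% in neutrophils and 1.4% to 5.1% in CD4 T cells. Atg16l2 was 60.3% to 60.9% of the ATG16L pair in B cells, 51.5% to 63.6% in neutrophils and 17.3% to 24.3% in Hmga2/Rhox5/Krt8 cells. These shares do not depend on the scaling, since both sides come from the same cells.

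**Figure D4:**
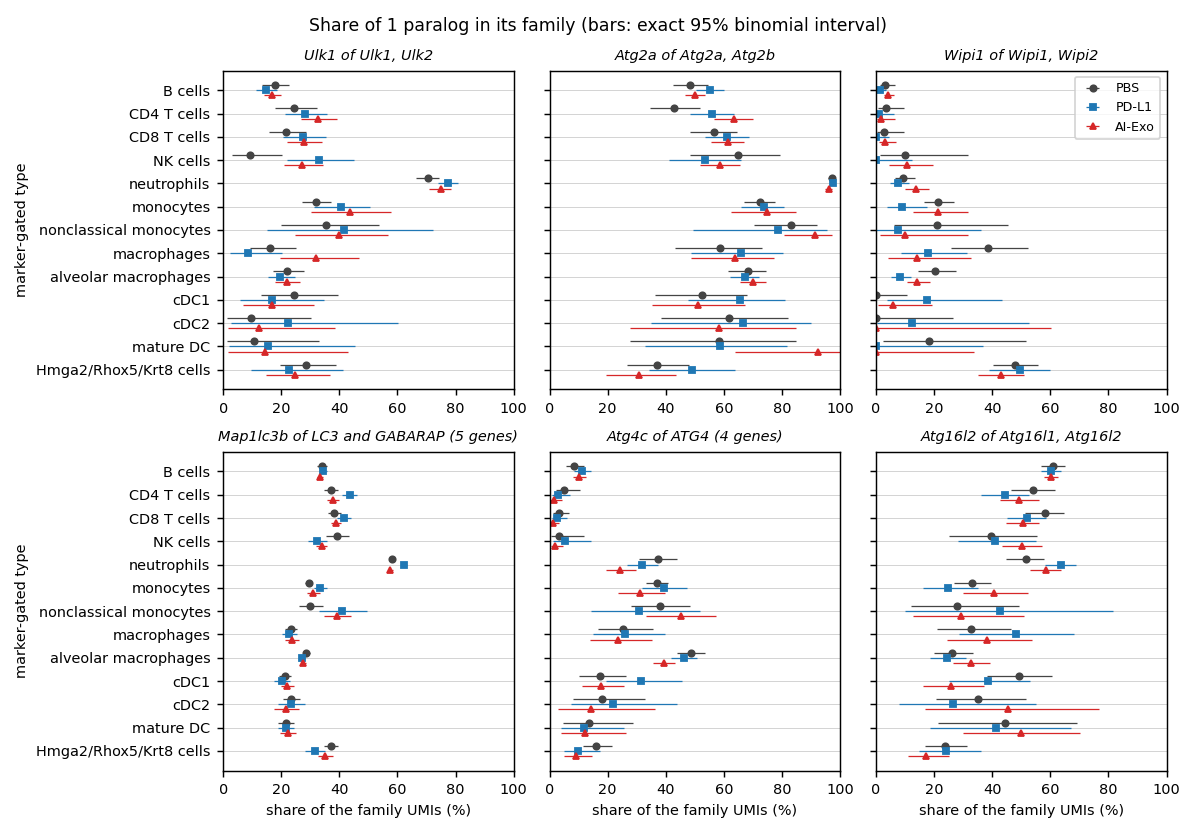
Share of 1 paralog in the UMIs of its family (horizontal axes, 0% to 100%) in 13 types, with 1 symbol per library and exact 95% binomial intervals that cover counting error only. Neutrophils are apart for Ulk1 (70.5% to 77.5%) and Map1lc3b (57.5% to 62.3%), and the Hmga2/Rhox5/Krt8 cells are highest for Wipi1. For Atg2a neutrophils are highest (96.1% to 97.4%), with mature dendritic cells at up to 92.3%.

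The libraries were then compared within 9 types by the ratio of CPM, for members with at least 100 UMIs over the pair, and a ratio past 1.5-fold was counted. There was no test, and each interval is an exact 95% interval for counting error alone. The 36 genes gave 324 combinations of gene and type, of which 213 (PD-L1 against PBS), 243 (AI-Exo against PBS) and 231 (AI-Exo against PD-L1) had enough UMIs. Those comparisons share their libraries, so they are not independent. In PD-L1 against PBS, 11 combinations (5.16%) were past 1.5-fold higher and 8 (3.76%) lower, while 4.89% and 6.53% of all gene and type combinations were. In AI-Exo against PBS, 6 (2.47%) were higher and 11 (4.53%) lower, against 5.1% and 5.29% of all. In AI-Exo against PD-L1, 6 (2.60%) were higher and 6 (2.60%) lower, against 5.58% and 3.98% of all. The members' shares were near or below these backgrounds in each comparison, and subtracting the largest share of outside RNA that each type allowed left all 6 counts as they were. In B cells 0 members passed in any of the 3 comparisons (33, 35 and 35 measured), and few genes passed there at all: 1.9% higher and 1.94% lower in PD-L1 against PBS, 1.62% and 2.91% in AI-Exo against PBS, and 1.17% and 2% in AI-Exo against PD-L1. In Hmga2/Rhox5/Krt8 cells 0 of 21 measured members passed in AI-Exo against PBS, where 2.62% of all genes were higher and 4.52% lower.

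Ulk2, the second ULK kinase, was the only member past 1.5-fold the same way in at least 3 types, and that in AI-Exo against PBS. It had 43.1, 20.7 and 24.3 CPM in neutrophils of PBS, PD-L1 and AI-Exo (164, 122 and 131 UMIs), 34.7, 28.8 and 17.6 CPM in monocytes and 51.2, 41.5 and 27.2 CPM in macrophages. AI-Exo was lower than PBS 1.78-fold (1.40 to 2.25) in neutrophils, 1.97-fold (1.35 to 2.96) in monocytes and 1.88-fold (1.24 to 2.91) in macrophages. In B cells Ulk2 was level at 46.8, 46.9 and 45.0 CPM, and in CD4 T cells it stood at 51.4, 53.4 and 48.4 CPM. In alveolar macrophages, the other myeloid type compared, it had 43.8, 45.0 and 35.7 CPM, and AI-Exo was 1.23-fold lower than PBS (1.02 to 1.48), short of 1.5-fold. All these ratios share the same pair of libraries. The share of all genes past 1.5-fold the same way in at least 3 types was not counted, so the result for Ulk2 has no background beside it.

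In neutrophils 5 of 26 measured members were past 1.5-fold lower in PD-L1 than in PBS, where 12.2% of all genes were. Ulk2 was 2.08-fold lower (1.64 to 2.66), Wipi2 1.6-fold lower (1.35 to 1.90; 45.6 against 73.1 CPM), and Atg13, Atg5 and Atg16l1 had 15.8, 17.1 and 19.8 CPM against 25.2, 26.3 and 30.2 CPM. The median measured member was at -0.21 (log2 ratio), beside -0.19 for all genes. TMM scaling moved the median gene of this comparison by 0.22, and Ulk2 was then the one member of the 5 still past 1.5-fold. Atg5 also fell short of 1.5-fold (log2 -0.55) without the barcodes rich in erythroid RNA. In AI-Exo against PBS 3 members were lower in neutrophils, where 6.75% of all genes were: Ulk2, Wipi2 (1.62-fold, 1.36 to 1.93; 45.2 against 73.1 CPM) and Atg4c (1.78-fold, 1.28 to 2.49; 12.4 against 22.1 CPM). Atg5 was higher in AI-Exo than in PD-L1, at 27.2 against 17.1 CPM, and fell short of 1.5-fold with TMM scaling. Map1lc3b and Gabarap in neutrophils were past 1.5-fold in none of the 3 comparisons, with log2 ratios from -0.26 to 0.19.

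In monocytes 6 of 32 measured members were past 1.5-fold higher in PD-L1 than in PBS, where 14.7% of all genes were. They were Nrbf2, a subunit of the lipid kinase complex (53.4 against 30.3 CPM, 1.76-fold, 1.39 to 2.22), Atg14 (16.9 against 10.3 CPM, 1.64-fold, 1.07 to 2.48), Uvrag (420 against 273 CPM, 1.54-fold, 1.42 to 1.67), Atg2a, Atg2b and Atg12. Atg4a was lower at 9.13 against 14.0 CPM, with an interval that includes no difference (1.54-fold, 0.942 to 2.63). With TMM scaling Uvrag, Atg2b and Atg12 fell short of 1.5-fold. In AI-Exo the monocytes had less Vmp1, at 202 CPM against 352 in PBS (1.74-fold lower, 1.56 to 1.95) and 341 in PD-L1 (1.69-fold lower, 1.49 to 1.92), on 356, 2357 and 748 UMIs. They had more Atg16l2 and Gabarapl1 than PBS, at 18.7 against 11.1 CPM (1.70-fold, 1.09 to 2.59) and 29.5 against 19.0 CPM (1.56-fold, 1.10 to 2.17). Against PD-L1 they had more Gabarapl2, at 103 against 68.0 CPM, and 1.79-fold less Atg2a. The monocytes numbered 819, 379 and 197 barcodes. They also differed between PBS, PD-L1 and AI-Exo in median UMIs (7794, 4827 and 7652), in mitochondrial UMIs (1.86%, 2.92% and 2.18%) and in their own markers: the 6 gate markers summed to 3928, 4197 and 3449 CPM, all 6 above 20 CPM in each library. Single markers moved both ways, with Lyz2 at 19557, 9074 and 13106 CPM, F13a1 at 602, 366 and 325 CPM and Ms4a4c at 403, 953 and 449 CPM. The 5 macrophage markers summed to 637, 635 and 576 CPM, the 7 neutrophil markers to 364, 319 and 236 CPM and the 5 nonclassical monocyte markers to 109, 53.4 and 41.5 CPM. Their part in the ratios was not tested.

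In T and NK cells 0 to 3 members were past 1.5-fold each way, of 10 to 30 measured in a type and comparison. The largest count was 3 of 27 lower in CD4 T cells in AI-Exo against PD-L1, where 3.98% of all combinations were. The shares of all genes in these single types are not given here. Uvrag in CD4 T cells had 84.7, 136 and 66.0 CPM in PBS, PD-L1 and AI-Exo, so PD-L1 was 1.61-fold above PBS (1.33 to 1.94) and AI-Exo was 2.06-fold below PD-L1 (1.72 to 2.47). Atg2a in CD4 T cells had 26.1, 46.0 and 39.9 CPM, 1.76-fold (1.26 to 2.48) and 1.53-fold (1.11 to 2.12) above PBS. Map1lc3a, a less abundant LC3 gene, had 18.9 CPM in AI-Exo CD4 T cells against 30.6 in PBS (1.62-fold lower, 1.13 to 2.33) and was also 1.67-fold below PD-L1, and Atg2b was 1.52-fold below PBS and 1.59-fold below PD-L1. In CD8 T cells AI-Exo was above PBS for Wipi2 (35.8 against 23.2 CPM, 1.54-fold, 1.16 to 2.07) and Atg2a (42.2 against 28.1 CPM), and above PD-L1 for Gabarapl1 (1.6-fold). NK cells of AI-Exo had more Atg16l2 than PBS (33.2 against 19.8 CPM, 1.68-fold, 1.0 to 2.98) and less Atg101 (29.6 against 50.1 CPM, 1.69-fold, 1.15 to 2.44). Against PD-L1 they had 1.54-fold more Atg16l2 and 1.52-fold more Atg13.

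In macrophages Rb1cc1 had 69.6, 35.7 and 60.8 CPM in PBS, PD-L1 and AI-Exo (106, 37 and 76 UMIs), so PD-L1 was 1.95-fold below PBS (1.33 to 2.92) and AI-Exo 1.70-fold above PD-L1. In alveolar macrophages PD-L1 was above PBS for Wipi2 (44.3 against 29.5 CPM, 1.5-fold, 1.2 to 1.87) and below it for Stx17 (10.8 against 16.8 CPM). AI-Exo was below PBS there for Atg16l1 (19.0 against 30.0 CPM, 1.58-fold) and Epg5 (8.10 against 12.2 CPM, 1.51-fold), both short of 1.5-fold with TMM scaling. In the Hmga2/Rhox5/Krt8 cells Becn1 had 44.1, 69.3 and 44.4 CPM on 111, 88 and 100 UMIs. PD-L1 was 1.57-fold above PBS for Becn1 (1.17 to 2.10) and 1.72-fold above it for Gabarapl1 (1.20 to 2.47), and AI-Exo was 1.56-fold below PD-L1 for Becn1. The PD-L1 values rest on 23 barcodes. Of 11 to 16 members measured per comparison in macrophages, 0 or 1 passed each way. In alveolar macrophages 0 to 2 of 30 to 35 did, and in Hmga2/Rhox5/Krt8 cells 0 to 2 of 18 to 21. The shares of all genes in macrophages and alveolar macrophages are not given here. For Hmga2/Rhox5/Krt8 cells they are given for AI-Exo against PBS only.

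**Figure D5:**
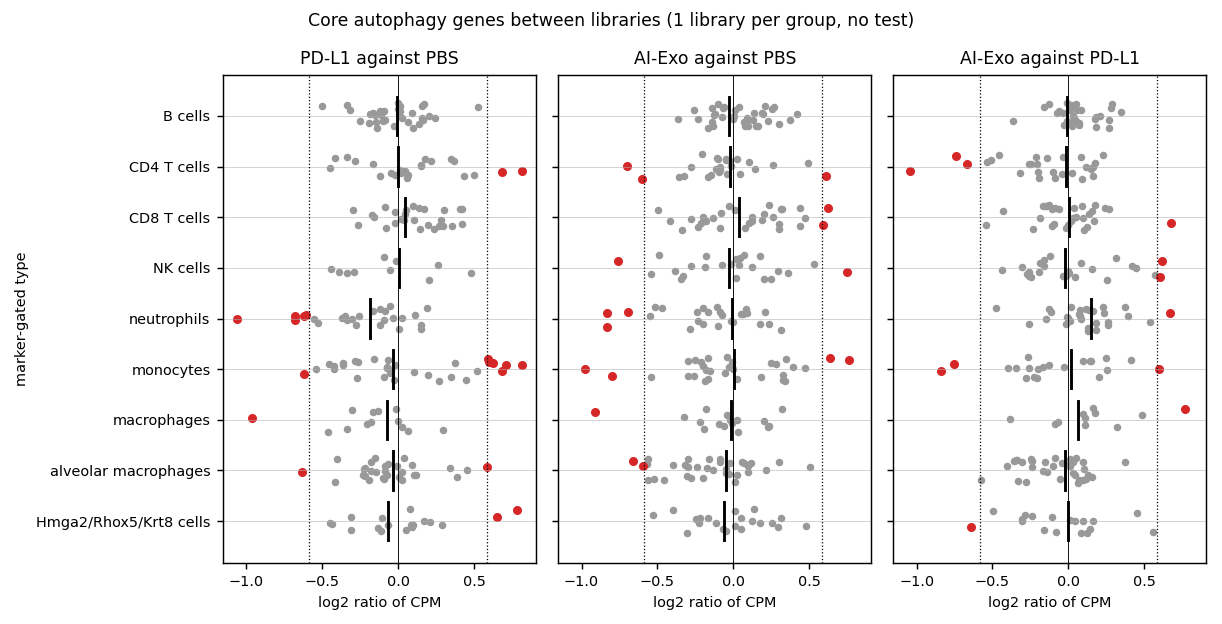
Log2 ratio of CPM between libraries for every member with at least 100 UMIs (points, spread vertically for legibility) in 9 types, 1 panel per comparison; red points are past 1.5-fold (dotted lines) and black bars give the median of all genes. Most points lie inside the dotted lines, and B cells have 0 red points in all 3 panels.

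Genes around the core machinery were taken from 5 lists: 12 selective receptors that bind cargo, 12 negative regulators and nutrient sensors, 8 transcription factors, 12 fusion partners and 20 lysosomal genes. With TMM scaling the neutrophils were higher for 9 receptors and lower for 2, with Optn and Bnip3 highest (log2 5.43 and 3.54) and Phb2 and Fundc1 lowest (-1.62 and -0.80). Sqstm1, the p62 receptor, had 542, 413 and 384 CPM in neutrophils and was called higher by TMM (log2 1.22) and not with all UMIs (0.22). Of transcription factors 6 were higher and 2 lower, led by Ddit3 and Foxo3 (log2 4.70 and 3.5), with Foxo1 and Zkscan3 lowest (-1.64 and -0.56). Tfeb, a master regulator of lysosome and autophagy genes, had 97.5, 88.0 and 65.9 CPM in neutrophils (log2 2.65, and 1.65 scaled to all UMIs). Fusion partners were higher in 9 cases and lower in 1 (Rab7 3.27, Vps18 3.21, Vps41 -1.29), and lysosomal genes in 16 and 3 (Ctsd 3.52, Ctsl 3.08, Npc2 -0.91). Negative regulators and nutrient sensors, 1 list, were split, 5 higher and 3 lower. Bcl2l1 and Prkag1 were highest (2.86 and 1.48) and Bcl2 and Rubcn lowest (-1.40 and -1.39). With scaling to all UMIs the higher and lower counts were 7 and 3 for receptors, 6 and 2 for transcription factors and 4 and 4 for fusion partners. They were 9 and 6 for lysosomal genes and 2 and 7 for negative regulators and nutrient sensors. Of all genes tested, 37.5% were higher and 28.6% lower in neutrophils by TMM, and 19.8% and 52.1% by all UMIs. The counts of negative regulators and nutrient sensors were near those shares.

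The Hmga2/Rhox5/Krt8 cells had the least Tfeb, with 3.58, 6.30 and 4.44 CPM against 7.98 to 101 CPM in the immune types (log2 -3.08, and -2.67 scaled to all UMIs), and Foxo1 was also lower (-2.63). Atf4 and Foxo3 were the transcription factors that were higher (log2 0.87 and 0.43), and the list had 2 higher and 6 lower by TMM, and 2 and 4 by all UMIs. Of the fusion partners 0 were higher and 8 lower (1 and 8 by all UMIs), with Tecpr1 and Plekhm1 lowest (-2.32 and -2.12). Of the lysosomal genes 2 were higher and 15 lower (3 and 14), with Ctsl and Gaa at 2.62 and 1.68 and Atp6v0d1 at -3.04. Receptors were higher in 3 and lower in 6 cases (3 and 4), from Bnip3 and Phb2 at 2.60 and 0.74 to Ncoa4 and Nbr1 at -2.21 and -2.19. Sqstm1 stood at 223, 172 and 180 CPM (log2 -1.42, and -1.01). Negative regulators and nutrient sensors were higher in 3 and lower in 3 cases (8 and 2). Prkaa1 and Tsc2 stood at 0.96 and 0.76 and Bcl2l1 and Bcl2 at -1.59 and -1.09. Of all genes tested, 37.9% were higher and 32.9% lower in these cells by TMM, and 47.8% and 23.9% by all UMIs.

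Phagocytes were higher than lymphocytes for 20 of 20 lysosomal genes under both scalings, with a median of 2.08 (log2) and Ctsl and Ctsb at 4.37 and 4.04, while the 36 core members had a median of -0.09 by TMM. Receptors were higher in 7 and lower in 2 cases (Wdfy3 5.73, Bnip3 2.63, Calcoco1 -0.68, Nbr1 -0.44), and Sqstm1 ran from 389 to 995 CPM in phagocytes and from 135 to 463 CPM in lymphocytes (log2 1.76). Transcription factors were higher in 5 and lower in 2 cases (Mitf 5.44, Tfe3 1.22, Foxo1 -2.35, Ddit3 -0.68), with Tfeb at log2 1.06. Fusion partners were higher in 7 and lower in 2 (Vamp8 1.51, Vps18 0.91, Tecpr1 -2.08, Vps16 -0.46). Negative regulators and nutrient sensors were higher in 3 and lower in 7 (Bcl2l1 0.44, Prkaa1 0.43, Bcl2 -4.39, Rubcn -0.65). With scaling to all UMIs the higher and lower counts were 7 and 3 for receptors and 4 and 3 for transcription factors. They were 5 and 2 for fusion partners and 2 and 7 for negative regulators and nutrient sensors. Of all genes tested, 33.7% were higher and 36.3% lower in phagocytes by TMM, and 30.7% and 40.7% by all UMIs.

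The lists were also compared between libraries. In PD-L1 against PBS, 0 of 70 measured combinations of receptor and type were past 1.5-fold higher and 13 (18.6%) were lower, beside 4.89% and 6.53% of all combinations. In AI-Exo against PBS 4 of 77 (5.19%) were higher and 6 (7.79%) lower, beside 5.1% and 5.29%, and in AI-Exo against PD-L1 4 of 71 (5.63%) were higher and 0 lower, beside 5.58% and 3.98%. The 13 lower in PD-L1 against PBS were unevenly spread: 4 of 10 measured in monocytes, 3 of 10 in neutrophils and 3 of 6 in Hmga2/Rhox5/Krt8 cells. NK cells, macrophages and alveolar macrophages had 1 each, and B, CD4 T and CD8 T cells had 0. In neutrophils 12.2% of all genes were lower in that comparison. The shares of all genes lower in monocytes and in Hmga2/Rhox5/Krt8 cells are not given here. The receptor counts of those types therefore have no background of their own. Bnip3, a mitophagy receptor, had 81.2, 22.4 and 39.3 CPM in neutrophils of PBS, PD-L1 and AI-Exo and 94.7, 59.8 and 58.2 CPM in Hmga2/Rhox5/Krt8 cells. Its relative Bnip3l had 134, 57.5 and 97.7 CPM in monocytes and 111, 73.2 and 66.2 CPM in Hmga2/Rhox5/Krt8 cells. These cases were chosen for the size of their ratios. Going the other way, AI-Exo was above PBS for Tollip in CD4 T cells (22.5 against 14.0 CPM), Ncoa4 in NK cells (45.5 against 26.8 CPM), Phb2 in neutrophils (22.4 against 14.5 CPM) and Tax1bp1 in monocytes (203 against 135 CPM). Sqstm1 in monocytes had 598, 509 and 389 CPM, and Tfeb had 39.0, 41.5 and 22.7 CPM in monocytes and 44.2, 34.7 and 21.8 CPM in NK cells. Foxo3 had 501, 280 and 319 CPM in neutrophils, whereas Ddit3 had 27.8, 71.7 and 64.2 CPM and Vps18 8.81, 26.0 and 27.3 CPM in monocytes. The other lists had from 0 to 7 combinations higher and from 1 to 10 lower in a comparison, of 52 to 152 measured. In PD-L1 against PBS, 9.62% of transcription factors were higher and 7.19% of lysosomal genes lower, above all combinations. In AI-Exo against PBS transcription factors were above them both ways (7.27% higher, 9.09% lower). In AI-Exo against PD-L1, 8.77% of negative regulators and nutrient sensors were higher and 7.55% of transcription factors lower. The remaining shares of these lists were below those of all combinations.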

How the data were processed

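The authors deposited UMI counts per gene and barcode as 10x matrices. The matrices name Cell Ranger 7.1.0, per the file headers, and the submitters' processing notes name Cell Ranger 3.0.2. Genome build, annotation and use of intronic reads: not given in the sources used here. From these counts, barcodes (minimum 500 UMIs and 200 genes, at most 20% mitochondrial) were gated by markers (3 gate markers needed), and UMIs were summed per type and library. Types were tested with edgeR 4.0.16 (R 4.3.3) quasi-likelihood fits with the library as a block, TMM scaling and Benjamini-Hochberg adjustment at 0.05 over 13124 genes; DESeq2 1.42.0 was an alternative. Libraries were compared by CPM ratios with exact 95% intervals (scipy 1.17.1), a minimum of 100 UMIs over the pair and 1.5-fold as the size counted, with no test. The scripts were tested on simulated data. The members and lists were chosen with earlier results of these data known; scaling to all UMIs, the monocyte gate, the erythroid check and the Hmga2 or Rhox5 gate were added after the data were seen. The text names all members by step, the 2 largest and 2 smallest library ratios per type, and the 5 largest and 5 smallest differences per type contrast; other genes named with values were chosen from their lists after their values were seen. Immature T-lineage and endothelial cells (3 and 18 barcodes in 1 library) were left out of the fits. Some genes that the rule would name are not reported here.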

Additional observations from a re-analysis of the deposited data

Results flagged for a closer look

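Wipi2 moved in opposite directions in different types against the same PBS library. In AI-Exo against PBS it was higher in CD8 T cells (35.8 against 23.2 CPM) and lower in neutrophils (45.2 against 73.1 CPM), a difference of 1.32 between the log2 ratios. In PD-L1 against PBS it was higher in alveolar macrophages (44.3 against 29.5 CPM) and lower in neutrophils (45.6 against 73.1 CPM), a difference of 1.27 between the log2 ratios. The median gene of that neutrophil comparison was itself at -0.19, and TMM scaling moved it by 0.22. Wipi2 in those neutrophils then fell short of 1.5-fold. The alveolar macrophage ratio stood at the 1.5-fold limit. Each group is 1 library, so the difference was not tested, and both cases share the PBS neutrophils.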

How the results depend on the processing

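No paired analysis was possible because each group was a single library, which holds for comparisons between treatments; the type contrasts had the library as a block, and without it gave 27 and 4 members higher and lower in neutrophils, 6 and 24 in Hmga2/Rhox5/Krt8 cells and 11 and 13 in phagocytes. Scaling to all UMIs in place of TMM raised the members higher in Hmga2/Rhox5/Krt8 cells from 6 to 10 and those lower in neutrophils from 4 to 11, and it turned the sign of Rb1cc1 (0.084) and Nrbf2 (0.072) in the former and of Atg16l1 (-0.13), Atg13 (-0.22), Ambra1 (-0.21), Gabarapl2 (-0.013), Nrbf2 (-0.36), Ulk2 (-0.23), Becn1 (-0.13) and Epg5 (-0.42) in neutrophils. Leaving out 1 library at a time gave 25 to 27 members higher and 1 to 4 lower in neutrophils, 4 to 5 and 19 to 21 in Hmga2/Rhox5/Krt8 cells, and 9 to 11 and 10 to 12 in phagocytes. The library counts followed the UMI minimum: PD-L1 against PBS went from 11 higher and 8 lower to 17 and 17 at 50 UMIs and to 6 and 4 at 200; AI-Exo against PBS from 6 and 11 to 11 and 19, and to 2 and 5; AI-Exo against PD-L1 from 6 and 6 to 14 and 12, and to 2 and 2. Adding 10 CPM to both sides gave 5 and 2, 0 and 6, and 1 and 3. Requiring 1 more gate marker gave 7 higher for PD-L1 against PBS and 7 lower for AI-Exo against PBS, TMM gave 5 lower for PD-L1 against PBS, and removing barcodes above 3 times the median UMIs gave 2 higher for AI-Exo against PD-L1 and turned Ctsl in macrophages (0.19). For the type contrasts, 1012 of 1088 member values kept direction and call, 66 no longer passed and 10 changed sign. For the libraries 384 of 444 stayed past 1.5-fold and 60 did not. A change of UMI minimum cannot alter a ratio, and the Hmga2 or Rhox5 gate alters only the Hmga2/Rhox5/Krt8 cells. Part of the 384 was therefore fixed in advance. Adding 10 CPM, over members and lists together, left 81 values past 1.5-fold and 71 short of it. The stricter gate left too few Hmga2/Rhox5/Krt8 barcodes for a value. Counting error limits members under about 100 UMIs, and PCR or sampling of mice is not covered by the intervals.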
